A study of Mus musculus with 36 samples.

Results

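RNA bound to tagged ribosomes was compared between 2 tissues of adult mice with a ChAT-Cre driver: synapse-enriched diaphragm muscle, which holds the axon terminals of motor neurons, and spinal cord, which holds their cell bodies. The comparison uses 3 adult Cre-positive diaphragm libraries and 3 adult Cre-positive spinal cord libraries, 6 of the 36 libraries of the series, chosen by their labels and not by any measured value. Both groups have the genotype ChAT-Cre;Ribo-tag, an age of 2 months and RNA purified through the HA tag, so tissue is the labelled difference between them. Beside them stand 3 libraries of adult diaphragm from Ribo-tag mice without Cre (Cre-negative), and 3 Cre-positive diaphragm and 3 Cre-positive spinal cord libraries of mice at postnatal day 10 (P10).

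RiboTag is a mouse allele in which Cre recombinase switches the ribosomal protein gene Rpl22 to a form with an HA tag, so that ribosomes of Cre-expressing cells and the mRNA on them can be pulled down. ChAT is choline acetyltransferase, the enzyme that makes acetylcholine; in the spinal cord its gene marks motor neurons and other cholinergic neurons. In the diaphragm, motor axons end on muscle fibres at neuromuscular junctions, where acetylcholine opens receptors in the fibre membrane and triggers contraction. A purification of this kind also carries RNA that is not on tagged ribosomes. The Cre-negative diaphragm shows the make-up of that RNA in muscle, as shares of reads. Its amount in a Cre-positive library cannot be read from such shares. The series holds no Cre-negative spinal cord library, so the same background was not measured in the cord. The labels do not name the cells in which Cre acted. In bulk samples fewer cells of a type and less RNA per cell cannot be told apart.

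Levels are in CPM, a gene's reads per 1e+06 reads of the library. The Cre-positive diaphragm libraries held 94.2, 107 and 102 M reads (M, 1e+06 reads) and the spinal cord libraries 67.6, 70.2 and 69.1 M. A value of 3 reads, the floor used for a gene without reads, is under 0.05 CPM in each of these libraries. The 10 most abundant genes took 23.2% to 23.8% of the reads in Cre-positive diaphragm and 7.44% to 7.73% in spinal cord. In each adult group 1 library lay between the other 2 for most genes. Cre-positive diaphragm replicate 3 did so for 78.3% of genes, spinal cord replicate 3 for 59% and Cre-negative diaphragm replicate 1 for 84.8%. These libraries are close to a mixture of their group's other libraries, so counts and calls that change without the library of this kind in every group of the fit are given in both forms. Cre-positive diaphragm replicates 1 and 2 differed, and not in 1 kind of gene only. Replicate 3 was close to a mixture of them, with weights of 0.274 and 0.719, so it does not show which of the 2 is unusual. The log2(CPM + 1) values of replicate 1 correlated with those of replicates 2 and 3 at 0.9420 and 0.9725, against 0.9903 between replicates 2 and 3. The summed level of replicate 1 for 9 red cell genes was 22625 CPM, against 11375 and 14290 CPM in replicates 2 and 3. For endothelial genes the sums were 1028 CPM against 634 and 732 CPM. Respiratory chain genes were lower in it, at 32.3% of reads against 37.0% and 35.4%. Nothing in the labels says that the replicates come from separate mice, so p-values rest on a spread between libraries that may be technical. In the main fits this spread was pooled over 24 libraries of 4 ages, not taken from the adult libraries alone.

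The 2 tissues differed in most of the genes tested. Differences are between group means of log2(CPM + 1), diaphragm minus spinal cord, so a positive value means higher in diaphragm, and the scale understates the change of genes near 0. Of 14831 genes tested with limma, 11090 passed a Benjamini-Hochberg adjusted p of 0.05, which is 74.8% (61.0% without the in-between libraries). In diaphragm 2895 genes were higher (19.5%) and 8195 lower (55.3%). This split depends on the scaling: 26.1% of the calls were higher in diaphragm on CPM, 41.6% after RLE size factors, 44.9% after TMM factors and 49.7% after quantile normalization. The median over all tested genes was -0.72 on CPM and -0.23, -0.14 and 0.02 under these scalings, so a list near 0 has no settled direction. The groups did not overlap for 79.7% of the genes tested, with diaphragm higher in 20.4%. With 74.8% of all genes called, a count of called members is read against that share. There were 589 genes at 0 reads in every Cre-positive diaphragm library and at 1 CPM or more in every spinal cord library, and 46 genes with the reverse pattern.

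**Figure D1:**
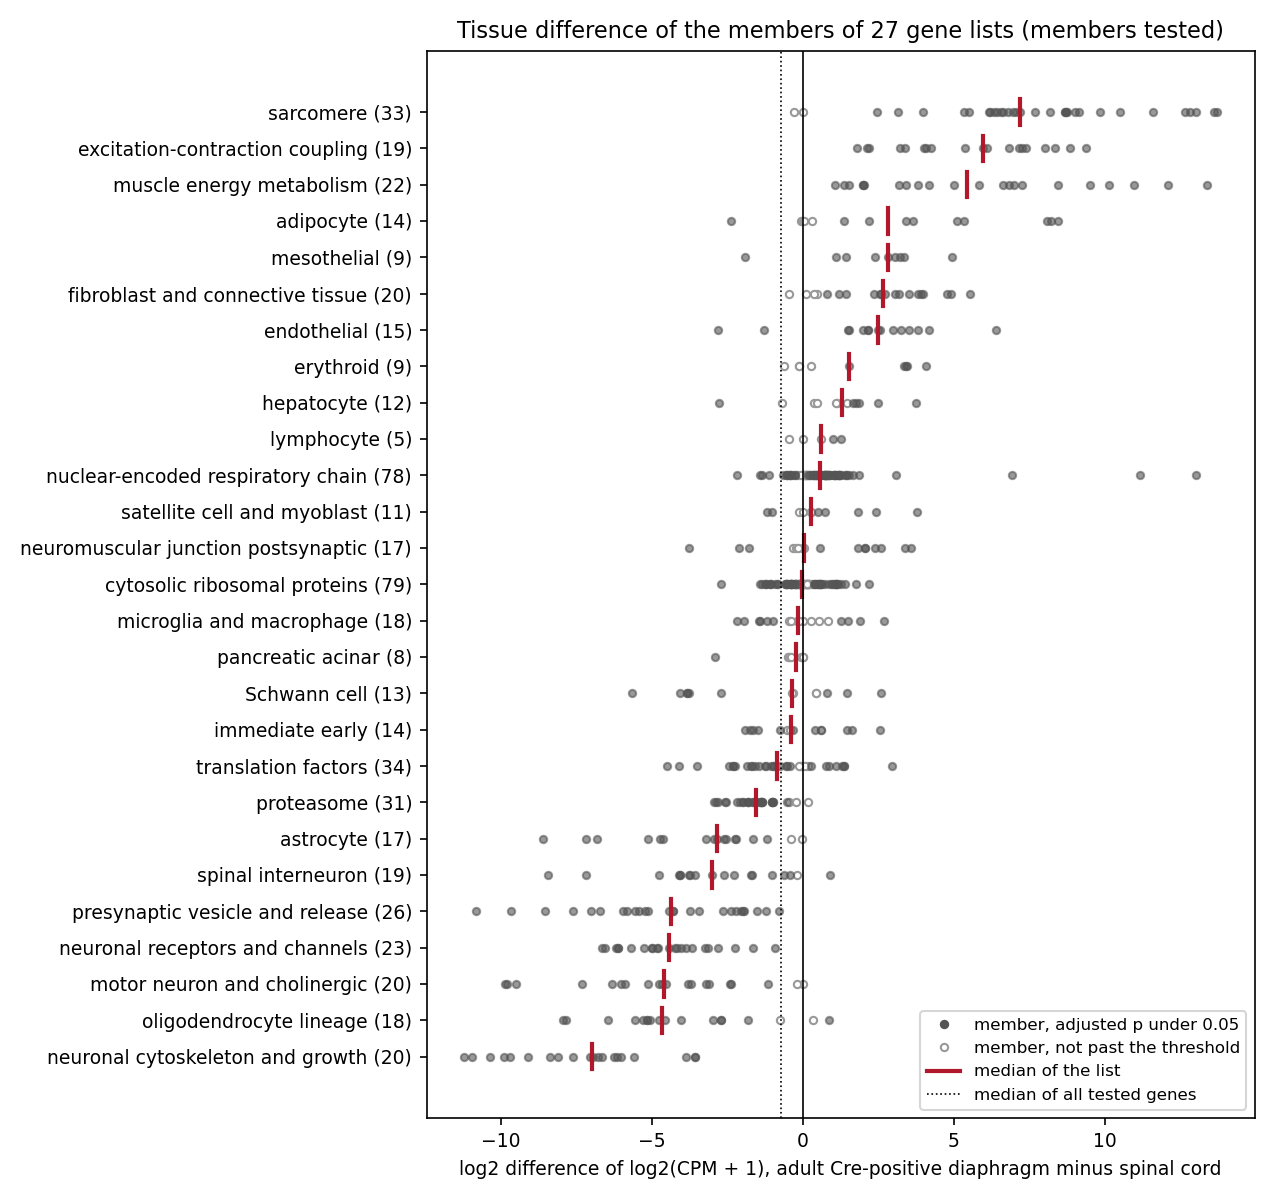
Tissue difference of each tested member of 27 gene lists, as the log2 difference of log2(CPM + 1) between adult Cre-positive diaphragm and spinal cord, with the number of members tested in brackets. Filled points passed an adjusted p of 0.05, open points did not, and red bars are list medians, which run from 7.19 for sarcomere genes to -6.99 for neuronal cytoskeleton genes, with all tested genes at -0.72 (dotted line).

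The genes that make, load and recover acetylcholine were close to absent from the diaphragm RNA and clear in the spinal cord RNA. Chat was read at 0, 0 and 0.0196 CPM in Cre-positive diaphragm, against 68.1, 62.3 and 63.3 CPM in spinal cord. Slc18a3, the transporter that fills vesicles with acetylcholine, was at 0.0743, 0.0748 and 0.0588 CPM in Cre-positive diaphragm, against 166, 170 and 173 CPM in spinal cord. Slc5a7, the choline uptake transporter, was at 0, 0.0561 and 0.0098 CPM in Cre-positive diaphragm, against 82.9, 80.7 and 78.7 CPM in spinal cord. No value of one tissue came near the other for any of these 3 genes. Their log2 differences were -6.02 ± 0.11, -7.32 ± 0.19 and -6.32 ± 0.11 (SE, n = 3 each, limma adjusted p of 8.7e-20, 9.4e-18 and 4.2e-20). The Cre-negative diaphragm held 0 CPM of Chat in all 3 libraries and 0, 0.0571 and 0.0331 CPM of Slc18a3, just below the Cre-positive values. These levels are a few reads per library, and neither gene was high enough to be tested among the diaphragm libraries.

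Of 20 motor neuron and cholinergic genes tested, 18 were lower in diaphragm, none was higher and 2 did not pass, with a list median of -4.59 against -0.72 for all genes. TMM and quantile scaling gave 17 lower and 2 higher. Calca and Calcb encode calcitonin gene-related peptides, which motor and sensory neurons release. Calca had 0, 0.542 and 0.5 CPM in Cre-positive diaphragm, against 1088, 1274 and 1158 CPM in spinal cord (log2 difference -9.79 ± 0.44). Mnx1, a homeodomain factor of motor neurons, had 0 reads in the 3 diaphragm libraries and 7.13, 7.79 and 7.69 CPM in spinal cord, at least 253-fold higher in the cord against a floor of 3 reads per library. Lhx3, a LIM factor that specifies motor neurons, had 0 reads in diaphragm and 5.15, 3.45 and 4.33 CPM in spinal cord. Chodl and Mmp9, markers of fast motor neurons, and Esrrg, a nuclear receptor of gamma motor neurons, were lower in diaphragm, at -5.88, -3.79 and -2.37. The 2 genes that did not pass on CPM were Foxp1, a factor of limb motor neurons, at 7.29, 5.92 and 6.5 CPM in Cre-positive diaphragm and 6.72, 6.47 and 6.56 CPM in spinal cord, and Aldh1a2, which makes retinoic acid, at 4.99, 5.37 and 5.47 CPM in Cre-positive diaphragm and 6.47, 5.47 and 6.55 CPM in spinal cord. Summed over the list, Cre-positive diaphragm held 23.7, 23.3 and 24.2 CPM, Cre-negative diaphragm 32.1, 40.5 and 26.2 CPM, and spinal cord 4018, 4191 and 4121 CPM. Foxp1 and Aldh1a2 were called higher in diaphragm under TMM scaling, at 0.88 and 0.68. All 3 Cre-positive diaphragm sums lay below all 3 Cre-negative ones. Foxp1 and Aldh1a2 made up a large part of the Cre-positive diaphragm sums, which therefore do not stand for the list as a whole.

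The filaments and microtubule proteins that fill axons had the lowest median of the 27 gene lists. All 20 genes of the neuronal cytoskeleton and growth list were lower in diaphragm, with a median of -6.99. The neurofilament subunits Nefm and Nefl had the largest differences of the list. Nefm had 0.616, 1.72 and 1.14 CPM in Cre-positive diaphragm, against 4822, 5054 and 5008 CPM in spinal cord. Its log2 difference was -11.20 ± 0.16, and those of Nefl and Nefh were -10.94 ± 0.24 and -9.88 ± 0.20. Outside the lists, Rtn1, a reticulon of neurons, and Bex2, a small adaptor protein of brain, were lower in diaphragm, at -10.26 and -10.24. The values of Nefm in Cre-negative diaphragm, 0.695, 0.96 and 0.839 CPM, lay inside the Cre-positive range. Stmn3, a microtubule-destabilising protein, Uchl1, a neuronal deubiquitinase, and Tubb3, the neuronal beta tubulin, were lower in diaphragm, at -10.34, -9.69 and -9.08. The smallest differences of the list were those of Mapt, the gene of tau, and Dpysl3, a growth cone protein, at -3.56 and -3.55. Mapt still had 18.9, 9.83 and 12.9 CPM in Cre-positive diaphragm, against 174, 164 and 170 CPM in spinal cord, and 13.3, 11.3 and 16.1 CPM in Cre-negative diaphragm.

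Genes of the release machinery, which acts at the motor terminal, were likewise lower in diaphragm. All 26 presynaptic genes were lower there on CPM, with a median of -4.37, and 25 of them under RLE, TMM and quantile scaling, the exception being Syngr1. Snap25, a SNARE protein of vesicle fusion, had 0.0955, 0.421 and 0.235 CPM in Cre-positive diaphragm, against 2229, 2233 and 2222 CPM in spinal cord (-10.81 ± 0.13, adjusted p = 3.7e-22). Cplx1, which clamps the fusion machinery, and Vamp1, the vesicle SNARE of motor terminals, were lower, at -9.65 and -8.54. Syt2, the calcium sensor of fast release, had 0.0106, 0.0561 and 0 CPM in Cre-positive diaphragm, against 137, 124 and 135 CPM in spinal cord. Syngr1, a vesicle membrane protein, had the smallest difference of the list, -0.79, with 41.8, 39.7 and 42.4 CPM in Cre-positive diaphragm, against 75.6, 68.4 and 71.7 CPM in spinal cord. Its direction turned to 0.04 and 0.20 under RLE and TMM, not called, and to 0.43 under quantile scaling, called higher. The summed level of the list was 98.2, 95.3 and 97.8 CPM in Cre-positive diaphragm, 120, 159 and 85 CPM in Cre-negative diaphragm and 5879, 5700 and 5843 CPM in spinal cord. The Cre-positive diaphragm sums lay inside the Cre-negative range. Syngr1 made up a large part of them, so they do not stand for the list as a whole.

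Receptors, channels and markers of other spinal neurons gave the same direction. All 23 neuronal receptor and channel genes were lower in diaphragm, with a median of -4.41. Glra1, the glycine receptor subunit through which spinal inhibition acts, had 0 reads in the 3 Cre-positive diaphragm libraries and 78.3, 67.5 and 70.6 CPM in spinal cord, at least 2423-fold higher in the cord. Kcna1, a potassium channel of axons, and Slc12a5, the chloride exporter of neurons, were lower in diaphragm, at -6.56 and -6.11. Of 19 spinal interneuron genes 17 were lower in diaphragm, 1 was higher and 1 did not pass, with a median of -2.99 (16 lower without the in-between libraries). The spinal cord RNA also held markers of glutamatergic and inhibitory neurons. Slc17a6, the vesicular glutamate transporter, had 14.3, 10.6 and 12.7 CPM there, Gad1, which makes GABA, had 18.4, 13.7 and 17 CPM, and Slc6a5, the glycine transporter, had 4.93, 3.09 and 3.9 CPM. In Cre-positive diaphragm none of these 3 genes passed 0.05 CPM in any library. The member that was higher in diaphragm was Lbx1, a homeobox gene of dorsal interneurons that migrating muscle precursors also use, at 1.87, 2.66 and 3.1 CPM in Cre-positive diaphragm and 0.933, 0.826 and 0.927 CPM in spinal cord.

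Genes of central glia were lower in diaphragm. Of 18 oligodendrocyte genes 15 were lower in diaphragm, 1 was higher (none without the in-between libraries) and 2 did not pass, with a median of -4.65. The 1 higher gene, Myrf, a myelin regulatory factor, had 13, 4.09 and 7.49 CPM in Cre-positive diaphragm and 3.57, 3.29 and 3.94 CPM in spinal cord, and its adjusted p of 0.004 became 0.066 without the in-between libraries. Of 17 astrocyte genes 15 were lower in diaphragm, with a median of -2.84, led by S100b, a calcium-binding protein, at -8.60. The labels do not say whether glia carried the tag, and the part of glial RNA in the spinal cord values was not tested. Schwann cells wrap the motor axons outside the cord. Of 13 Schwann cell genes 3 were higher, 6 lower and 4 did not pass, with a median of -0.36 (0.03 under quantile scaling), and 2 were higher without the in-between libraries. The largest differences were negative: Mal, a myelin lipid raft protein that oligodendrocytes also make, and Fa2h, which makes hydroxylated myelin lipids in both cell types, were at -5.65 and -4.08. Prx, periaxin, which Schwann cells make, had 3.27, 1.59 and 1.99 CPM in Cre-positive diaphragm, against 0.207, 0.0997 and 0.159 CPM in spinal cord (1.47 ± 0.37, limma adjusted p = 0.0014). In Cre-negative diaphragm Prx was at 3.47, 6.29 and 0 CPM, a range that holds all 3 Cre-positive values.

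**Figure D2:**
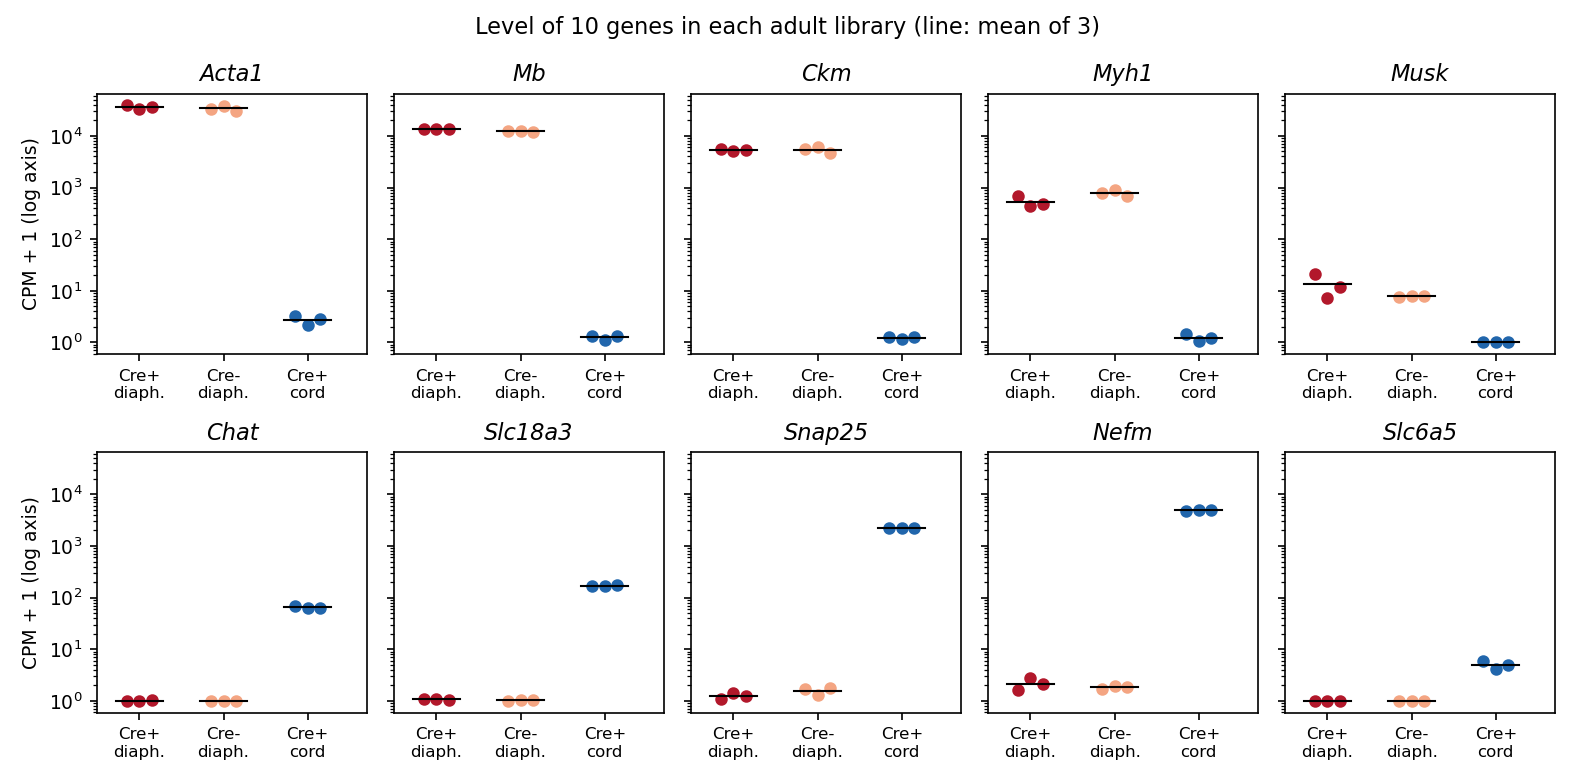
Level of 10 genes in each adult library, as CPM + 1 on a log axis, in Cre-positive diaphragm (left), Cre-negative diaphragm (middle) and Cre-positive spinal cord (right); points are libraries and lines are means of 3. Acta1, Mb, Ckm, Myh1 and Musk stand higher in both diaphragm groups, and Chat, Slc18a3, Snap25, Nefm and Slc6a5 higher in spinal cord.

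**Figure D3:**
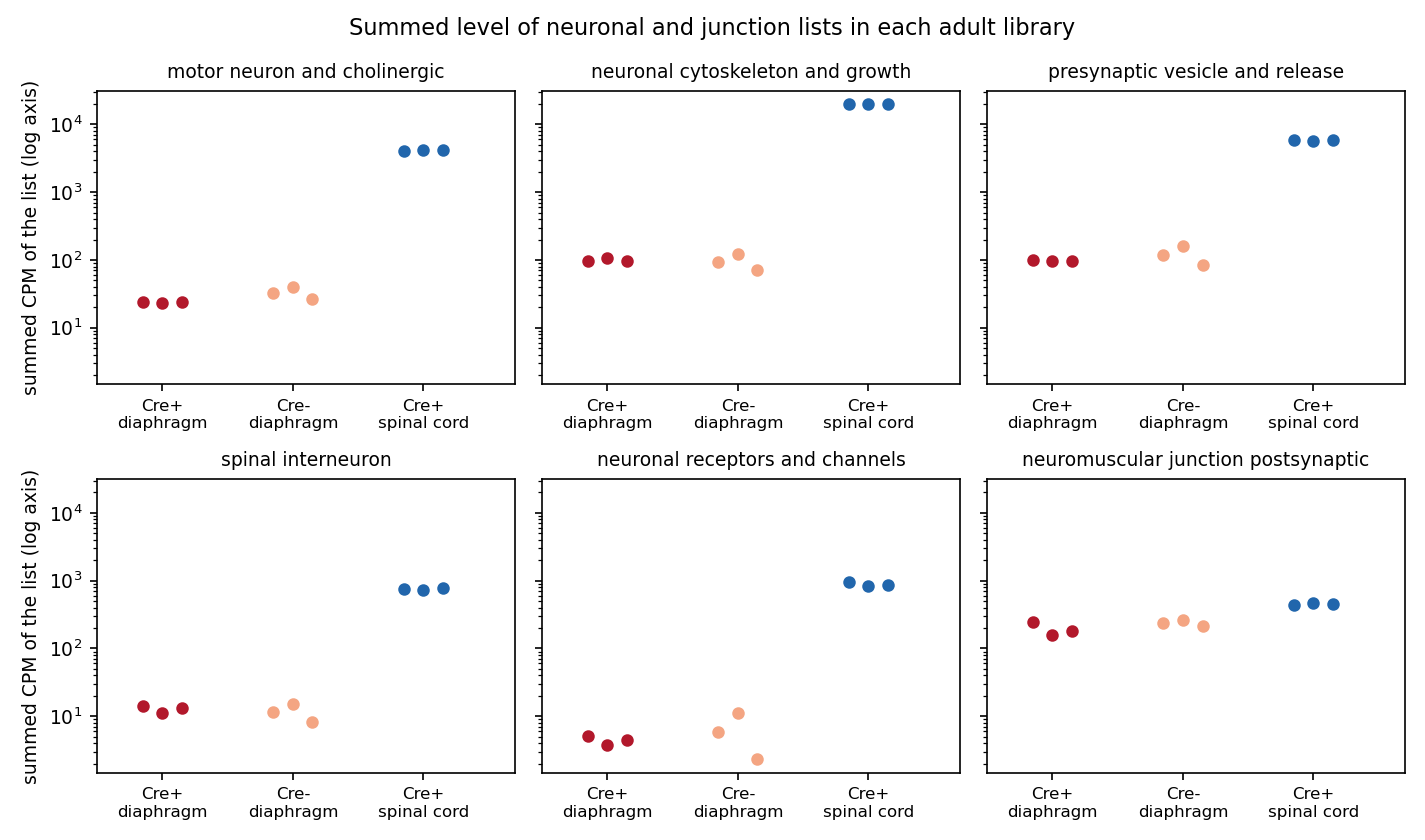
Summed CPM of 6 lists in each adult library, on a log axis, in Cre-positive diaphragm, Cre-negative diaphragm and Cre-positive spinal cord. A few members make up a large part of the motor neuron and presynaptic sums in Cre-positive diaphragm. The Cre-positive diaphragm points lie close to the Cre-negative ones in all 6 panels, for example at 95.3 to 98.2 CPM and 85 to 159 CPM for the presynaptic list, while spinal cord stands at 5700 to 5879 CPM.

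Contractile genes had the highest median of the lists. Of 33 sarcomere genes 31 were higher in diaphragm and none was lower, with a median of 7.19, and the list took 16.3% ± 0.198 of the reads in Cre-positive diaphragm and 0.0528% ± 0.000893 in spinal cord (SD, n = 3 each). Acta1, the actin of skeletal muscle thin filaments, had 39007, 33588 and 36960 CPM in Cre-positive diaphragm, against 2.26, 1.14 and 1.88 CPM in spinal cord. Its log2 difference was 13.71 ± 0.47 (SE, limma adjusted p = 6.7e-16). Tnni2 and Tnnt3, troponin subunits of fast fibres, and Tcap, which caps titin at the Z disc, were higher in diaphragm by 13.62, 13.03 and 12.82. Ttn, the giant spring protein titin, had 123, 54.3 and 73 CPM in Cre-positive diaphragm and 0 reads in every spinal cord library. Cre-negative diaphragm held 33777, 37545 and 30900 CPM of Acta1, values that overlap the Cre-positive ones, and gave 14.8% ± 1.04 of its reads to the list.

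The myosin heavy chains name the fibre types. Myh1, of fast type 2X fibres, had 677, 433 and 487 CPM in Cre-positive diaphragm, against 0.444, 0.0427 and 0.203 CPM in spinal cord (8.75). Myh2, of type 2A fibres, and Myh4, of type 2B fibres, differed by 6.96 and 6.15. Myh7, of slow fibres, had 147, 58.9 and 81.8 CPM in Cre-positive diaphragm, against 9.92, 8.28 and 9.28 CPM in spinal cord (3.15). The 2 members that did not pass were Myh3 and Myh8, the embryonic and neonatal chains, whose levels stayed under 0.6 CPM in all 6 libraries. Slow troponins were also high in diaphragm, with differences of 9.83 for Tnnt1 and 5.51 for Tnni1.

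All 19 genes of excitation-contraction coupling and all 22 genes of muscle energy metabolism were higher in diaphragm, with medians of 5.97 and 5.43 (21 of the 22 without the in-between libraries). Ryr1, the calcium release channel of the sarcoplasmic reticulum, had 231, 98 and 134 CPM in Cre-positive diaphragm, against 0.0148, 0.0285 and 0.0145 CPM in spinal cord. Atp2a1, the calcium pump of fast fibres, and Cacna1s, the voltage sensor, were higher by 9.36 and 6.83. Pvalb, a calcium buffer of fast fibres that inhibitory interneurons and proprioceptive sensory neurons also make, differed less: it had 2005, 2335 and 2236 CPM in Cre-positive diaphragm, against 220, 196 and 217 CPM in spinal cord (3.37). Mb, myoglobin, had 13311, 13350 and 13349 CPM in Cre-positive diaphragm, against 0.34, 0.0997 and 0.319 CPM in spinal cord (13.38 ± 0.25, adjusted p = 1.1e-19). Ckm, the muscle creatine kinase, was higher in diaphragm by 12.09 ± 0.55, and Fabp3, a fatty acid carrier of muscle that is also made elsewhere, by 4.17.

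Genes of the muscle side of the junction were split. Of 17 neuromuscular junction genes 8 were higher in diaphragm (7 without the in-between libraries), 3 lower and 6 did not pass, with a median of 0.03 on CPM and 0.71, 0.84 and 0.82 under RLE, TMM and quantile scaling. Musk, the receptor kinase that organises the junction, had 19.7, 6.36 and 10.7 CPM in Cre-positive diaphragm, against 0, 0 and 0.0145 CPM in spinal cord (3.59 ± 0.43). Chrnd and Chrne, the delta and the adult epsilon subunits of the muscle acetylcholine receptor, were higher by 2.60 and 2.40. Rapsn, which clusters the receptor, and Colq, which anchors acetylcholinesterase, were higher by 1.84 and 2.05. The alpha subunit Chrna1 had 1.77, 4.83 and 4.2 CPM in Cre-positive diaphragm, against 2.12, 1.99 and 1.77 CPM in spinal cord, groups that overlap. Its difference of 0.57 had an adjusted p of 0.03, and of 0.38 without the in-between libraries. Chrng, the fetal subunit, had 0 reads in all 6 libraries. Ache, acetylcholinesterase, which both neurons and muscle make, was lower in diaphragm, with 5.33, 8.54 and 7.82 CPM there and 109, 110 and 111 CPM in spinal cord (-3.77). Agrn, the nerve signal to Musk, did not pass on CPM (-0.17; 0.72 and called higher under quantile scaling), at 15.2, 2.61 and 6.49 CPM in Cre-positive diaphragm and 7.88, 7.39 and 7.39 CPM in spinal cord.

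Genes of other cells of the muscle were mostly higher in diaphragm. Of 20 fibroblast and connective tissue genes 16 were higher (15 without the in-between libraries) and none was lower, with a median of 2.65, led by Dpt, dermatopontin, at 5.54 and Col5a1, a collagen chain, at 4.89. Of 15 endothelial genes 13 were higher and 2 lower, with a median of 2.50. The water channel Aqp1 had 160, 83.4 and 107 CPM in Cre-positive diaphragm, against 0.281, 0.356 and 0.406 CPM in spinal cord (6.40). The 2 lower genes, Slc2a1 and Slco1a4, are transporters of the blood-brain barrier, at -2.80 and -1.28. Of 9 mesothelial genes, which mark the lining of body cavities, 8 were higher (7 without the in-between libraries), led by Msln, mesothelin, at 4.92, and Gpm6a, which neurons also make, was lower. Of 14 adipocyte genes 9 were higher and 1 lower, with Cfd, the secreted protease adipsin, at 512, 222 and 286 CPM in Cre-positive diaphragm, against 0, 0.157 and 0.116 CPM in spinal cord (8.20). The lower gene was Thrsp, a regulator of lipid synthesis, at -2.38.

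Blood, liver and immune lists were uneven. Of 9 red cell genes 5 were higher in diaphragm and 4 did not pass, led by Hbb-bs, a beta globin, at 4.08 ± 0.24. The globin genes share sequence, so their separate values are uncertain. Of 18 microglia and macrophage genes 4 were higher, 6 lower (5 without the in-between libraries) and 8 did not pass, with a median of -0.16 on CPM that turned to 0.27, 0.39 and 0.48 under RLE, TMM and quantile scaling. Lyz2, lysozyme of macrophages, was higher by 2.69, and Siglech and P2ry12, markers of microglia, were lower, at -0.99 and -1.18. Of 12 hepatocyte genes 5 were higher, 1 was lower (Trf, transferrin, which oligodendrocytes also make) and 6 did not pass, and without the in-between libraries 1 was higher and 1 lower. Alb, serum albumin, had 33.5, 14.4 and 21.9 CPM in Cre-positive diaphragm, 0.93, 0 and 2.24 CPM in Cre-negative diaphragm and 2.46, 14.8 and 9.25 CPM in spinal cord, and its tissue difference of 1.48 did not pass on CPM but did under RLE, TMM and quantile scaling, at 2.26, 2.40 and 2.49. Liver is no labelled tissue here, and the origin of these reads was not tested. Of 8 pancreatic genes tested Cela1, an elastase, was lower, and of 5 lymphocyte genes Ptprc, the common leukocyte antigen, and Cd79b, of the B cell receptor, were higher, Cd79b with an adjusted p of 0.13 without the in-between libraries.

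Muscle stem cell genes were mixed. Of 11 satellite cell and myoblast genes tested 5 were higher in diaphragm (4 without the in-between libraries), 2 lower and 4 did not pass. Myf6, a muscle regulatory factor of mature fibres, had 11.7, 14.5 and 14.4 CPM in Cre-positive diaphragm, against 0.133, 0 and 0 CPM in spinal cord (3.79). Myod1, a factor of myoblasts, had 6.55, 2.66 and 4.74 CPM in Cre-positive diaphragm and 0 reads in spinal cord, at least 107-fold higher in diaphragm. Myog, which drives differentiation, was near its floor, with 0, 0.467 and 0.235 CPM in Cre-positive diaphragm and 0 in spinal cord, and did not pass.

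Oxidative and translational genes are used by every cell. Of 78 nuclear-encoded respiratory chain genes 53 were higher in diaphragm, 14 lower and 11 did not pass, with a median of 0.56. Without the in-between libraries 48 were higher and 12 lower. The counts were 70 and 3 under RLE, 73 and 1 under TMM, and 40 and 22 with a median of 0.24 under quantile scaling. The list took 34.9% ± 2.37 of the reads in Cre-positive diaphragm and 19.3% ± 0.462 in spinal cord. Its 3 largest differences were all muscle isoforms of cytochrome c oxidase subunits, Cox6a2 at 13.03, Cox8b at 11.17 and Cox7a1 at 6.93. Its 2 lowest were the widely expressed partners Cox8a at -2.18 and Cox6a1 at -1.43, of which Cox6a1 was at -0.43 and not called under TMM (adjusted p = 0.052). Of 79 cytosolic ribosomal protein genes 25 were higher, 27 lower and 27 did not pass, with a median of -0.03; without the in-between libraries 22 were higher and 22 lower. RLE, TMM and quantile scaling gave 65, 67 and 52 higher and 6, 3 and 11 lower, with medians of 0.81, 0.97 and 0.43, so the direction of the list is not settled. Of 34 translation factors 8 were higher and 21 lower (7 and 18 without the in-between libraries), with a median of -0.85 that was -0.03, 0.13 and 0.32 under RLE, TMM and quantile scaling. Of 31 proteasome genes 28 were lower in diaphragm and none was higher on CPM, against 21 lower and 3 higher under RLE and 18 lower and 4 higher under both TMM and quantile scaling, with medians of -1.55 on CPM and of -0.72, -0.56 and -0.35 under those scalings. Of 14 immediate early genes 5 were higher and 6 lower (3 and 4 without the in-between libraries), with a median of -0.38 that was positive under all 3 scalings.

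Rpl22, whose product carries the tag, was lower in diaphragm on CPM, by a margin that shrank under other scalings. It had 11.8, 13.5 and 15.1 CPM in Cre-positive diaphragm, against 38.4, 36.9 and 37.3 CPM in spinal cord (-1.42 ± 0.13, adjusted p = 4.0e-09), and 25, 21.6 and 24.3 CPM in Cre-negative diaphragm. The difference was -0.62 under RLE, -0.46 under TMM (adjusted p = 0.038) and -0.29 under quantile scaling, where it was not called (adjusted p = 0.19). The table gives 1 value per gene and does not separate the tagged form. Its paralogue Rpl22l1 was lower as well, at 260, 331 and 305 CPM in Cre-positive diaphragm and 1038, 1117 and 1083 CPM in spinal cord (-1.86).

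Muscle and neural forms of the same protein were set side by side. In 25 pairs of related genes, the first the form better known from muscle or from tissue outside the brain, 21 had the first gene higher and the second lower in diaphragm, on CPM. Both genes were higher for Actn3 and Actn1 (adjusted p of Actn1 0.17 without the in-between libraries) and for Atp2a1 and Atp2a2, both were lower for Rpl22l1 and Rpl22, and Eef1a2 was lower while Eef1a1 did not pass. The pairs were chosen because these forms are known to differ, so the count is a description. Creatine kinase gave one of the widest gaps: Ckm was higher by 12.09, and its brain form Ckb had 21, 9.45 and 13.3 CPM in Cre-positive diaphragm, against 1444, 1280 and 1349 CPM in spinal cord (-6.51). The mitochondrial forms Ckmt2 and Ckmt1 differed by 10.95 and -8.20, and the enolases Eno3 and Eno2 by 9.51 and -8.42. Rpl3l, a ribosomal protein restricted to striated muscle, had 706, 669 and 683 CPM in Cre-positive diaphragm, against 0.888, 0.442 and 0.434 CPM in spinal cord (8.77). Rpl3, which it replaces, had 165, 102 and 118 CPM in Cre-positive diaphragm, against 844, 795 and 820 CPM in spinal cord (-2.69). The SNARE genes Snap23 and Snap25 differed by 1.46 and -10.81, and Vamp5 and Vamp2 by 5.99 and -2.63. Cox7a2 and Slc25a5, second genes of 2 such pairs, were lower on CPM at -0.54 and -1.14, but Cox7a2 was at 0.30 and 0.46 under RLE and TMM. Slc25a5 was at -0.31, -0.15 and 0.02 under RLE, TMM and quantile scaling and not called.

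**Figure D4:**
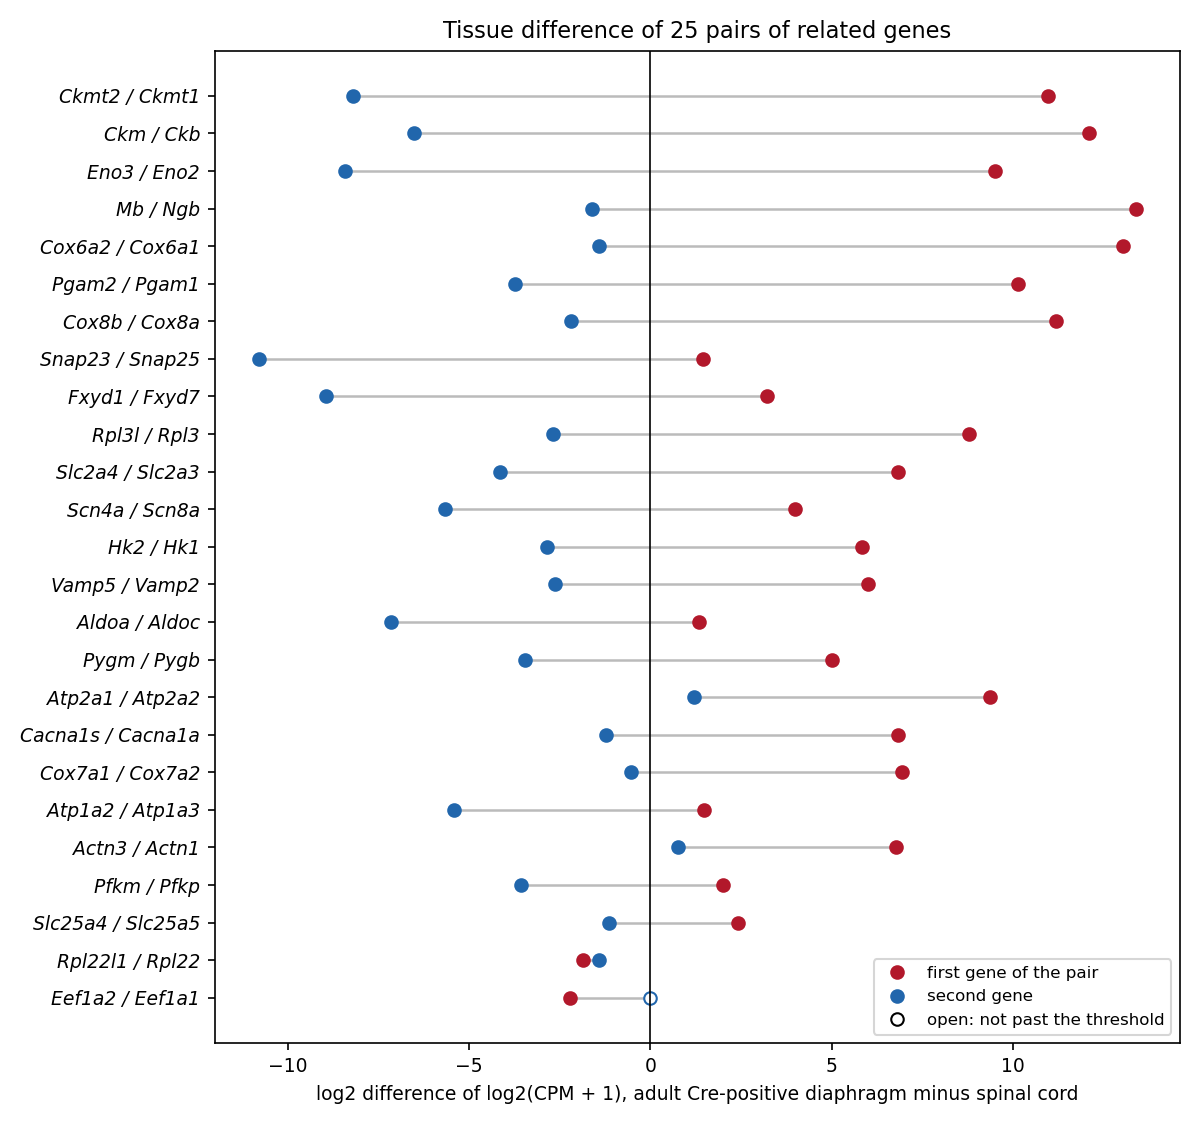
Tissue difference of both genes of 25 pairs, as the log2 difference of log2(CPM + 1) between adult Cre-positive diaphragm and spinal cord, with the first gene in red and the second in blue; open points did not pass an adjusted p of 0.05. The first gene has the larger difference in 23 of the 25 pairs, all but Rpl22l1 with Rpl22 and Eef1a2 with Eef1a1.

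The 250 bases upstream of the start of 5 genes are printed to set 2 such pairs, creatine kinase and cytochrome c oxidase subunit 8, and the most abundant sarcomeric actin side by side. The sequences are from RefSeq (GRCm38.p6), on the gene's strand, 5′ to 3′. Capitals mark matches to the E-box CAGCTG (its own reverse complement), the MEF2 motif (both strands) and the TATA box TATAAA (gene strand only), and 2 motifs may overlap.
Ckm: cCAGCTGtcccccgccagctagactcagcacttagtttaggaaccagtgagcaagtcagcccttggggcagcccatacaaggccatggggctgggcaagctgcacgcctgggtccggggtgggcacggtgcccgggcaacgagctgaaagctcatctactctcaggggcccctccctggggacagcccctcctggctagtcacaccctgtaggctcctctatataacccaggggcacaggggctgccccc
Ckb: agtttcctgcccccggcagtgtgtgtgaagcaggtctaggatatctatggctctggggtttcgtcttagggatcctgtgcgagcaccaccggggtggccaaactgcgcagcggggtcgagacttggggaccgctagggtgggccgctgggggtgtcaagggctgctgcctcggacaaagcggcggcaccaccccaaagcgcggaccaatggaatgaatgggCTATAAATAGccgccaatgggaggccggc
Cox8b: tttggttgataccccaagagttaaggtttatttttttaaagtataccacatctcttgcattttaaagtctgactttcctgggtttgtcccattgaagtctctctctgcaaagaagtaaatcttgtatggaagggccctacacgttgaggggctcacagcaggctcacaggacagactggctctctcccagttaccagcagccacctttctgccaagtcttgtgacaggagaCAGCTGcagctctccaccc
Cox8a: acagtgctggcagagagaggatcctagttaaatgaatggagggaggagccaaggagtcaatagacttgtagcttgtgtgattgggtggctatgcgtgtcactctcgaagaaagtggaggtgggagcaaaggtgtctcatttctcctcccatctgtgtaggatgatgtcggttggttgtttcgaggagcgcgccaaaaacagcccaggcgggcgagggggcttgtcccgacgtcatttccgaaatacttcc
Acta1: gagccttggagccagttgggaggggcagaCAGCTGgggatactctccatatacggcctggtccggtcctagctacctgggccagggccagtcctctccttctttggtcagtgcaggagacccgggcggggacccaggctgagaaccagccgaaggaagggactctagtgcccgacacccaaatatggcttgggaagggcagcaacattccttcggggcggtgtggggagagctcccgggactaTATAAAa
Ckm lies at chr7:19410844-19411093 on the plus strand, and Ckb at chr12:111672339-111672588, Cox8b at chr7:140900447-140900696, Cox8a at chr19:7217617-7217866 and Acta1 at chr8:123894776-123895025 on the minus strand. Ckm and Cox8b each held 1 E-box and Acta1 an E-box and a TATA box, Ckb held a TATA box inside a MEF2 match, and Cox8a held none of these letters in the window. Over 32851 promoters of the table the E-box was in 13%, the MEF2 motif in 2.92% and TATAAA in 7.59%. Promoters were in the table for 26 sarcomere genes (31 promoters), of which 38.7% held the E-box and 16.1% the MEF2 motif. For 21 presynaptic genes (28 promoters) the shares were 25% and 0%. The E-box was in 34.6% of 26 promoters of muscle energy genes and in 31.2% of 16 promoters of neuronal cytoskeleton genes, and the MEF2 motif in 3.85% and 0% of them. A match is a description of letters and says nothing of a factor's binding in these samples.

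The Cre-positive diaphragm was also set against the Cre-negative diaphragm, which differs from it by the label in Cre alone. Of 13853 genes tested in the 24 diaphragm libraries 1659 passed (12%), with 424 higher in Cre-positive diaphragm (3.06%) and 1235 lower (8.92%), and without the in-between libraries 17 passed (0.123%), none of them a member of the 27 lists. This comparison shares its Cre-positive diaphragm libraries with the tissue comparison, so the values are given side by side only. Of 12 motor neuron genes tested 1 was higher and 1 lower in limma, while edgeR called 0 and DESeq2 4. Of 19 presynaptic genes none passed in limma, with 1 at an unadjusted p under 0.05 and none called by edgeR or DESeq2. Of 19 neuronal cytoskeleton genes tested 0 were higher and 2 lower in limma, while edgeR called 0 and DESeq2 5. Of 33 sarcomere genes 2 were higher and 1 lower in limma, while edgeR called 3 and DESeq2 6. The higher motor neuron member was Aldh1a2, at 4.99, 5.37 and 5.47 CPM in Cre-positive diaphragm and 0.583, 0.183 and 1.66 CPM in Cre-negative diaphragm (1.88), and the lower one was Chodl (-1.74). Without the in-between libraries their adjusted p was 0.54 and 0.33. Penk, the enkephalin precursor, was the 1 called gene of 6 interneuron genes tested, with 8.34, 3.56 and 5.59 CPM in Cre-positive diaphragm, 0.0448, 0 and 0 CPM in Cre-negative diaphragm and 111, 105 and 110 CPM in spinal cord. Its Cre-positive values lay above all Cre-negative ones (2.69, adjusted p = 9.7e-06, and 0.06 without the in-between libraries). Beside it 7 of 12 hepatocyte genes were higher with Cre, among them Alb at 3.64 (none without the in-between libraries, with 7 at an unadjusted p under 0.05 in limma), and the part of such RNA in the Penk value was not tested.

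The tissue difference was also compared between adult mice and mice at P10, by the adult difference minus the P10 difference in the same fit. Of 14831 genes 5092 passed (34.3%), 2117 with a more positive and 2975 with a more negative difference in the adult (14.3% and 20.1%); without the in-between libraries 1055 passed (7.11%). On CPM 41.6% of these calls were positive, against 51.2%, 48.4% and 51.1% under RLE, TMM and quantile scaling. Of 33 sarcomere genes 16 were positive (5 without the in-between libraries) and none negative, with a median of 1.26 against -0.10 for all genes. Acta1 differed by 13.71 in the adult, 5.07 ± 0.66 more than at P10 (adjusted p = 9.9e-06). It had 36518 ± 2736 CPM in adult and 24037 ± 302 CPM in P10 diaphragm, and 1.76 ± 0.572 CPM in adult and 73.1 ± 49.3 CPM in P10 spinal cord (SD, n = 3 each). Sarcomere reads spread widely between the P10 spinal cord libraries. The list summed to 554, 1868 and 1201 CPM there and to 533, 518 and 533 CPM in adult cord. Excitation-contraction coupling genes summed to 186, 266 and 223 CPM in P10 cord and 261, 236 and 261 CPM in adult cord. Most of the adult cord sums was Pvalb, which neurons also make, so the sums do not show the level of the other members. Of the 19 genes 7 had a positive and 2 a negative change (2 and 0 without the in-between libraries). Tnnc2, the fast troponin C, was at 27.1, 719 and 347 CPM in P10 cord and at 9.96, 2.74 and 5.95 CPM in adult cord. Its change of 5.22 had an adjusted p of 0.00091, and of 0.10 without the in-between libraries. How much of this change the sarcomere reads in P10 cord account for was not tested.

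Of 14 adipocyte genes 7 were positive and 2 negative (5 and 1 without the in-between libraries), with Fabp4, a fatty acid carrier, at -0.37 and not called, and Thrsp at -1.85. Cfd had 512, 222 and 286 CPM in adult diaphragm and 1.89, 1.61 and 2.44 CPM in P10 diaphragm, and stayed under 0.2 CPM in spinal cord at both ages (change 6.74 ± 0.70). Adig, a gene of fat cell differentiation, changed by 5.86 in the same way. Of 18 oligodendrocyte genes 11 were positive (3 without the in-between libraries) and none was negative. Gal3st1, which makes the myelin lipid sulfatide, had 23.9, 13.5 and 20 CPM in adult cord and 134, 117 and 130 CPM in P10 cord (5.04). Gsn, gelsolin, an actin-severing protein, had 93.2, 32.8 and 57.6 CPM in adult cord and 1839, 1943 and 1894 CPM in P10 cord, and its change was 6.32. For Gal3st1 and Gsn the cord values make up only part of the change, which also takes in the diaphragm values. Of 11 satellite cell genes 8 were negative (4 without the in-between libraries) and none positive. Mymx, the fusogen of myoblasts, had 0 reads in adult diaphragm and 32.9, 54.8 and 47.3 CPM in P10 diaphragm (-5.38 ± 0.29), and Myog had at most 0.467 CPM in adult and 35.7, 30.5 and 36 CPM in P10 diaphragm (-4.76). The cholinergic genes did not pass: the change was -0.01 for Chat, -0.15 for Slc18a3 and -0.31 for Slc5a7. In diaphragm they were near 0 at both ages, the highest being Slc18a3 with means of 0.0693 CPM in adult and 0.0682 CPM at P10. Their changes therefore rest on the cord levels and cannot show an age change in diaphragm.

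**Figure D5:**
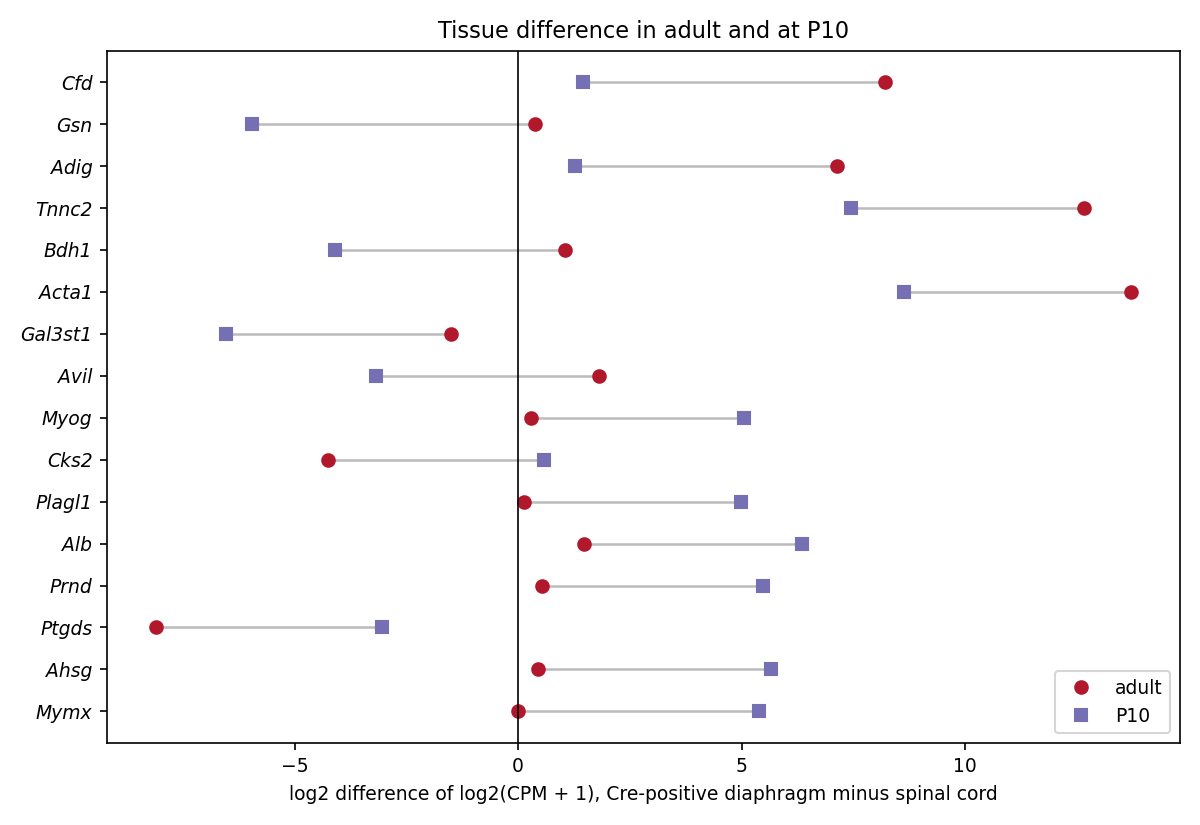
Tissue difference of 16 genes in adult mice (red circles) and at P10 (purple squares), as the log2 difference of log2(CPM + 1) between Cre-positive diaphragm and spinal cord. These are the 8 largest positive and 8 largest negative changes by the rule, from Cfd at 6.74 to Mymx at -5.38.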

How the data were processed

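RiboTag RNA was purified from diaphragm and spinal cord and sequenced, per the labels' protocols. Values are CPM per gene as deposited by the authors in 1 table of 18845 genes; the submitters' processing notes name Bowtie2 2.2.5, RSEM 1.2.12 and the mm10 build, with no role given for each. Whether counting used strand is not given in the sources used here. Whole reads were recovered from the steps of the CPM values (100% of values whole within 0.1 read), and counting intervals cover counting error only. The test was limma 3.58.1 (R 4.3.3; lmFit and eBayes with trend and robust settings) on log2(CPM + 1), over genes with at least 1 CPM in at least 3 libraries of the fit, with Benjamini-Hochberg adjustment over all genes tested. The tissue and age contrasts came from 1 fit of 24 Cre-positive libraries at 4 ages, and the Cre contrast from 1 fit of 24 diaphragm libraries. Alternatives were TMM, RLE and quantile scaling, a pseudocount of 0.1, no filter, fewer libraries, a replicate block, and edgeR 4.0.16 and DESeq2 1.42.0 on the recovered reads. Those without the in-between libraries were chosen after seeing the data. On simulated data with 14902 genes, the tissue test recovered 69% of 2-fold and 100% of 4-fold changes. There the libraries were independent, with a fixed spread (dispersion of 0.04). No tissue difference was set for 14702 genes, and the changed genes were drawn from the more abundant ones. The real libraries differ in these points, so the shares do not give the recovery in them.

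The members and gene lists were chosen with earlier results of these data known. The genes named were fixed genes of acetylcholine use and the tag, the 12 largest differences per direction, up to 5 called members per list with the largest differences, the gene pairs and the 8 largest age changes per direction; further list members are named as examples, chosen after their values were seen. Of 626 list members 622 were in the table, and 18719 gene identifiers matched the RefSeq table. Some results are not reported here.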

Additional observations from a re-analysis of the deposited data

Results flagged for a closer look

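The tissue difference differed between adult and P10 for 5092 genes, by limma's test of the difference itself. The genes named by the rule are given with their adult minus P10 change on the log2 scale. On the positive side the changes were 6.74 for Cfd, 6.32 for Gsn, 5.86 for Adig, 5.22 for Tnnc2, 5.15 for Bdh1, 5.07 for Acta1, 5.04 for Gal3st1 and 4.99 for Avil. Bdh1, which makes and uses ketone bodies, averaged 34.4 CPM in adult and 2.58 CPM in P10 diaphragm, and 16.0 CPM in adult and 58.6 CPM in P10 spinal cord. On the negative side they were -5.38 for Mymx, -5.19 for Ahsg, -5.06 for Ptgds, -4.94 for Prnd, -4.88 for Alb, -4.87 for Plagl1, -4.83 for Cks2 and -4.76 for Myog. Plagl1, an imprinted zinc finger gene, averaged 2.24 CPM in adult and 124 CPM in P10 diaphragm, and 1.96 CPM in adult and 2.95 CPM in P10 spinal cord. Ptgds, a prostaglandin synthase of meninges and glia, averaged 0.126 CPM in adult and 8.54 CPM in P10 diaphragm, and 309 CPM in adult and 76.6 CPM in P10 spinal cord. Without the in-between libraries the adjusted p was 0.10 for Tnnc2, 0.088 for Avil and 0.10 for Alb.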

How the results depend on the processing

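The count of genes that differed between tissues, 11090, stayed within 1.5 times under every alternative run, from 7930 with only the compared groups and no in-between libraries to 11928 with no filter, and was 10557 to 11031 with 1 compared library left out. The adult minus P10 count of 5092 was 2369 without the in-between library of each compared group and 1055 without that of every group. It was 871 with only the compared groups and no in-between libraries, and 4316 to 5360 with 1 adult library left out. No P10 library was left out on its own. The Cre count of 1659 was 3197 by DESeq2, 828 by edgeR, 460 without the in-between library of each compared group, 17 without that of every group and 1 with only the compared groups and no in-between libraries. With 1 library left out it was 859 to 1653, the lowest without Cre-negative replicate 1 (859) and Cre-positive replicate 3 (930). Its share of higher calls was 25.6% on CPM, 54.6% under RLE, 53.3% under TMM and 48.5% under quantile scaling. Among genes named by the rule and refitted under every alternative, those that changed sign were Cox7a2 (0.30 under RLE, 0.46 under TMM), Slc25a5 (0.016 under quantile scaling) and Eef1a1, which was at -0.01 and not called. Eef1a1 was at 0.83 under RLE, 0.99 under TMM, 0.83 under quantile scaling, 0.020 in each of the 3 fits without in-between libraries and -0.12 to 0.10 with 1 library left out. List medians that changed sign were those of Schwann cells (0.03 under quantile scaling), microglia (0.16 by both DESeq2 and edgeR and 0.28 without diaphragm replicate 2), ribosomal proteins (0.06 without diaphragm replicate 1), beside the medians of microglia, ribosomal proteins, translation factors and immediate early genes under the scalings given in the text. Same-numbered diaphragm and spinal cord libraries had deviations from their group means correlated at 0.039, 0.046 and -0.012. With 3 libraries per group, 1 of them close to a mixture of the others, these values cannot decide whether the samples were paired. With replicate number as a block the counts were 11074 for tissue, 5103 for adult minus P10 and 1572 for Cre. The cause of these changes was not tested.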
